A study of Mus musculus with 7 samples.

Results

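The 39 protein-coding Hox genes of the mouse were followed in stromal cells sorted from limb bone marrow. Members were the rows of the deposited count tables whose Ensembl identifier maps to a symbol made of Hoxa, Hoxb, Hoxc or Hoxd and a number. They were 39 of the 53801 gene rows. The rule used no measured value. All mice were male C57BL/6 animals, 8 weeks old when treatment began. The 4 FAPi mice were given a fibroblast activation protein (FAP) inhibitor at 500 µg/kg, and the 3 DPBS mice received the vehicle, Dulbecco's phosphate-buffered saline. Both groups had 100 µl by daily intraperitoneal injection for 35 days, and the sources used here do not name the compound. Each library came from 7000 live cells that carried Pdgfra and lacked CD45, Ter119 and Tie2, sorted from digested marrow of limb bones. RNA was made into libraries by a modified Smart-seq2 method and read as paired 150-base reads. The labels do not say which limbs or bones each library came from.

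Hox genes encode homeodomain transcription factors and lie in 4 clusters, HoxA to HoxD. Genes at the same place in different clusters are paralogues and share a group number. Low-numbered groups are used toward the head of the embryo and high-numbered groups toward the tail. In the limb, the posterior HoxA and HoxD genes pattern the axis from shoulder or hip to digits, and several posterior HoxC genes are used in the hindlimb and not in the forelimb. Adult connective tissue and skeletal stroma are known to retain part of the Hox code of the place where they formed. Hox proteins bind DNA together with TALE cofactors of the Pbx, Meis and Pknox families.

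The genes of a paralogue group are alike in the homeobox, which encodes the DNA-binding homeodomain, and the results below turn on which paralogue of a group was transcribed. The homeoboxes of groups 8 and 10 are shown for that reason, because each group had a member among the highest in these cells and another at 0 reads in every library. They were read from GENCODE M21 transcripts, and each is 180 bases long. Capitals mark positions at which the 3 genes of the group are not all the same.
Hoxd8 homeobox: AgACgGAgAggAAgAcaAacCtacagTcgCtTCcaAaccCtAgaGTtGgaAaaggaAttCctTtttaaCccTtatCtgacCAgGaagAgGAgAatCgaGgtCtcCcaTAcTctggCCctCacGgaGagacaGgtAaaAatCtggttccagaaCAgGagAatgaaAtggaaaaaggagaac
Hoxc8 homeobox: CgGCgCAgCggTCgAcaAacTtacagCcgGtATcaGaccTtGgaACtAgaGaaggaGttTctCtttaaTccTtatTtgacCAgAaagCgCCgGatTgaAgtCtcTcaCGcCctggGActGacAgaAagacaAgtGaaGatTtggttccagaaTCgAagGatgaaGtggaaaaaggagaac
Hoxb8 homeobox: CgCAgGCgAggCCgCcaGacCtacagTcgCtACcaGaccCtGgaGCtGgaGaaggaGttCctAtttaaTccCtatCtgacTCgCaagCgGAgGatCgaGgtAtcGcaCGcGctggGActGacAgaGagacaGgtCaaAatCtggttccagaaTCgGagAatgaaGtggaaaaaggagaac
Hoxc10 homeobox: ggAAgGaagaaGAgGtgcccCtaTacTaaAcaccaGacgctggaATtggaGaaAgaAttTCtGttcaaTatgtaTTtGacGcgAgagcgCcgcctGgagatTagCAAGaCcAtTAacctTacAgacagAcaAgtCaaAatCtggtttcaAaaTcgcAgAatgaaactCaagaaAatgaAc
Hoxa10 homeobox: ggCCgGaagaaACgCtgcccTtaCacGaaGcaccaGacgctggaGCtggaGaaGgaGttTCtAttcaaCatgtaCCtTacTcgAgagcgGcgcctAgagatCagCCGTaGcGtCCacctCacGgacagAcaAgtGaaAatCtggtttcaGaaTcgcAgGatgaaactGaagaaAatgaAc
Hoxd10 homeobox: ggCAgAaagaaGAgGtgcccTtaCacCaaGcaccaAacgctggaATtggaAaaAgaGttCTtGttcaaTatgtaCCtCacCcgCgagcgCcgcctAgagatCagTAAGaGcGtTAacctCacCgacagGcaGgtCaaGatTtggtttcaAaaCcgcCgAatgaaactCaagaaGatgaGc
In group 8, 56 of the 180 positions differ somewhere among the 3 genes, and in group 10 the number is 50. Over all members, homeobox identity was 67.2% to 93.9% for the 42 pairs within a paralogue group, with a median of 80.6%. For the 699 pairs across groups it was 46.1% to 88.9%, with a median of 60.6%. The longest exact run that 2 members shared, outside places where the genes themselves overlap, was 58 bases, between Hoxb6 and Hoxc9. None of 739 such pairs shared a run as long as the 150-base read. The paralogues are therefore separable by full-length reads.

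Most Hox transcript in the sorted cells came from 2 of the 4 clusters, HoxA and HoxC. Levels between genes are given as TMM-normalised CPM per kilobase of exon (CPM is a gene's reads scaled to a common library size), averaged over all 7 libraries. The length is the union of all annotated exons of a gene, which can exceed its longest transcript. For Hoxa9 these are 5580 and 3226 bases, and for Hoxc6 2408 and 1581. Levels per kb and their order depend on this choice. HoxC held 48.8% ± 10.9 (SD, n = 7) of the summed Hox level and HoxA held 38.8% ± 9.65. HoxD held 8.55% ± 7.59 and HoxB 3.83% ± 1.94. The order of these last 2 turned between the group means. In DPBS HoxD held 2.58% and HoxB 3.39%, with HoxB higher in all 3 libraries. The 2 were nearly level in DPBS replicate 3, at 2.68% and 2.70%. In FAPi HoxD held 13.03% ± 7.26 and HoxB 4.16% ± 2.64 (SD, n = 4). FAPi replicate 1 had HoxD at 2.76%, near the DPBS libraries. Every gene of HoxA (11 genes, chr6:52155590-52260880, minus strand, mm10) and HoxC (9 genes, chr15:102921103-103036852, plus strand) had reads in at least 1 library. By contrast, 4 of the 10 HoxB genes (chr11:96194316-96368256, plus strand) and 6 of the 9 HoxD genes (chr2:74668310-74765142, plus strand) had none in any library. In all, 29 members had reads somewhere and 14 exceeded 3 reads in all 7 libraries. The edgeR low-count filter, about 1.08 CPM in at least 3 libraries, let 18 members through: 9 of HoxA, 7 of HoxC, and 1 each of HoxB and HoxD. Hox genes together took 0.0360% (95% Wilson interval 0.0347 to 0.0374) to 0.0553% (0.0538 to 0.0569) of a library's reads. Such intervals cover counting error only.

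**Figure D1:**
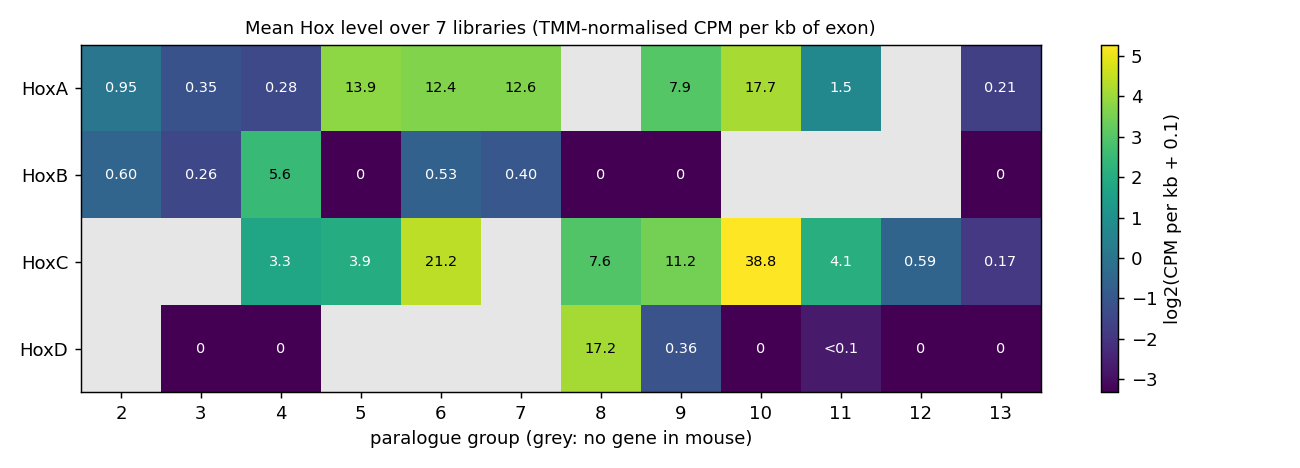
Mean level of each Hox gene over the 7 libraries, with clusters in rows and paralogue groups 2 to 13 in columns. Colour and numbers give TMM-normalised CPM per kb of exon (colour on a log2 scale), and grey cells are places where the mouse has no gene. High cells fill HoxA groups 5 to 10 and HoxC groups 6 to 10, with Hoxd8 and Hoxb4 as the only bright cells of their clusters.

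Along the axis of paralogue groups, most of the level lay in the middle and posterior groups and little in the anterior ones. Groups 4 to 8 held 53.2% ± 9.97 (SD, n = 7) of the summed level, groups 9 to 13 held 44.5% ± 10.1, and groups 1 to 3 held 2.28% ± 1.003. Group 10, which shapes the upper limb segment and the lumbar spine, had the highest sum at 56.6 CPM per kb, followed by group 6 at 34.1 and group 8 at 24.8. These sums pool DPBS with FAPi, and their order did not hold in every library. In DPBS replicate 3, Hoxc6 was at 41.4 CPM per kb, Hoxc10 at 17.3 and Hoxa10 at 17.1. In group 8, Hoxd8 was at 4.195 CPM per kb in DPBS and 26.96 in FAPi. In DPBS Hoxc8 was at 12.3, while Hoxc9 and Hoxa9 of group 9 were at 17.0 and 9.02. Group 11, which patterns the forearm and lower leg, reached 5.66 CPM per kb. Group 13, the group of digits and of the genital and caudal end, reached 0.378 CPM per kb, and group 12 reached 0.591. None of the 6 genes of groups 12 and 13 passed the low-count filter.

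By single gene the order began with Hoxc10 at 38.8 ± 33.9 CPM per kb (SD, n = 7), a gene of hindlimb and lumbar identity. Hoxc6 followed at 21.2 ± 10.6, then Hoxa10 at 17.7 ± 4.43 and Hoxd8 at 17.2 ± 16.8. Next came Hoxa5 at 13.9 ± 4.18, Hoxa7 at 12.6 ± 6.18, Hoxa6 at 12.4 ± 8.19 and Hoxc9 at 11.2 ± 6.96. Hoxa9 at 7.91 ± 3.47, Hoxc8 at 7.62 ± 8.45, Hoxb4 at 5.58 ± 4.40 and Hoxc11 at 4.07 ± 3.91 closed the first 12. This order pools both groups and does not hold in each of them. Hoxd8 was at 4.195 CPM per kb in DPBS, place 10, and at 26.96 in FAPi, place 2. Hoxa6 was at place 9 in DPBS and 5 in FAPi, and Hoxc9 at 3 and 10, with Hoxc10 first in both. Neighbours in this order were not separated: the first of each pair was the higher one in 3 to 5 of the 7 libraries. The leading gene itself changed from library to library. It was Hoxa10 in DPBS replicate 1, Hoxc10 in DPBS replicate 2, Hoxc6 in DPBS replicate 3, Hoxa5 in FAPi replicate 1, Hoxd8 in FAPi replicate 2, and Hoxc10 in FAPi replicates 3 and 4. The 7 genes with the highest means held 57.4% to 82.3% of the Hox level of a library. Hoxc10 stood at the 91.8th percentile of the 13353 protein-coding genes above the 3-read floor.

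Before the treatment groups were compared, the libraries were checked. Totals ranged from 7492570 to 10569690 reads. Markers of marrow stroma were present in every library: Cxcl12 ran from 15945 to 21281 CPM, Lepr from 1354 to 1904 CPM and the sorted marker Pdgfra from 317 to 440 CPM, and all 10 stromal markers passed the filter with none called. Fap, whose protein is the target of the inhibitor, was measured at 174 to 213 CPM in DPBS and 205 to 268 CPM in FAPi, with a log2 difference of 0.29 ± 0.23 (SE) and an adjusted p of 0.799 by edgeR's quasi-likelihood test. An enzyme inhibitor need not change its target's transcript, so this value does not check the labels. Transcripts of the other cell types that the sort selected against were not all low. Ptprc (CD45) lay at 0.269 to 5.28 CPM and Tek (Tie2) at 0 to 1.60 CPM, but transcripts typical of erythroid cells, which Ter119 marks, were abundant. Erythroid markers (11 listed and 10 found, led by Hba-a1, Hba-a2 and Hbb-bs) summed to 1886 to 15975 CPM in DPBS and 1637 to 3328 CPM in FAPi, with 6 of 10 lower at an unadjusted p under 0.05. Neutrophil markers (10, led by S100a8, S100a9 and Camp) summed to 675 to 2841 CPM in DPBS and 198 to 624 CPM in FAPi, with 7 of 9 tested lower at that p. Over all tested genes 3.69% were lower at that p by edgeR, and none of these markers was called after adjustment. For haematopoietic progenitor markers (16, led by Cd34, Spi1 and Meis1, with Gfi1 at 0) the sums were 122 to 291 CPM in DPBS and 98.8 to 182 CPM in FAPi. B-cell markers (10, led by Ebf1, Vpreb3 and Ighm, of which Ebf1 is also a stromal gene) gave 626 to 1178 CPM in DPBS and 763 to 1262 CPM in FAPi. Macrophage markers (10, of which 4 passed the filter, led by Vcam1, Lyz2 and C1qa, with Fcgr1 at 0) gave 967 to 1336 CPM in DPBS and 890.3 to 1263 CPM in FAPi. A sum can rest on leading genes that other cells also transcribe, as with Ebf1. It therefore does not measure how many cells of the type were sorted. Endothelial markers (10, led by Kdr, Egfl7 and Ly6c1) gave 69.3 to 215 CPM in DPBS and 86.8 to 387 CPM in FAPi, chondrocyte and periosteal markers (8, led by Prg4, Ctsk and Sox9, with Col10a1 at 0) 525 to 1027 CPM in DPBS and 259.7 to 1139 CPM in FAPi, and muscle markers (6, with Myod1, Pax7 and Myh4 at 0, and Myf5, Acta1 and Ckm highest) 2.85 to 9.71 CPM in DPBS and 2.39 to 26.5 CPM in FAPi. Several Hox genes are also expressed in blood progenitors, and the part of these other cells in the Hox values was not tested.

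FAPi was compared with DPBS in 1 edgeR quasi-likelihood fit over all 12930 genes that passed the filter, with Benjamini-Hochberg adjustment and a threshold of 0.05. No Hox gene passed, and neither did any other gene (0% of those tested). The smallest adjusted p of any gene was 0.0989, and those of the 18 Hox genes ran from 0.462 to 0.978. With DESeq2 1 Hox gene, Hoxd8, passed, beside 1.1% of the 12267 genes with an adjusted p there (84 higher and 51 lower, the higher ones being 0.685%). At an unadjusted p under 0.05 there were 4 Hox genes, 3 with higher estimates (Hoxd8, Hoxa2 and Hoxa6; 4.45% of all genes met this in that direction) and 1 with a lower estimate (Hoxc9; 3.69% of all genes). Over both directions 8.14% of all genes met it. Estimates were higher in FAPi for 10 members and lower for 8, with a median log2 difference of 0.20, against 0.01 over all genes tested, of which 50.6% were higher. Of the 18, Hoxa2 passed the filter through FAPi libraries alone, so its higher side was fixed by the filter, and these counts describe the tested genes alone. In bulk RNA a change in how many cells of a type were sorted and a change in RNA per cell cannot be told apart.

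**Figure D2:**
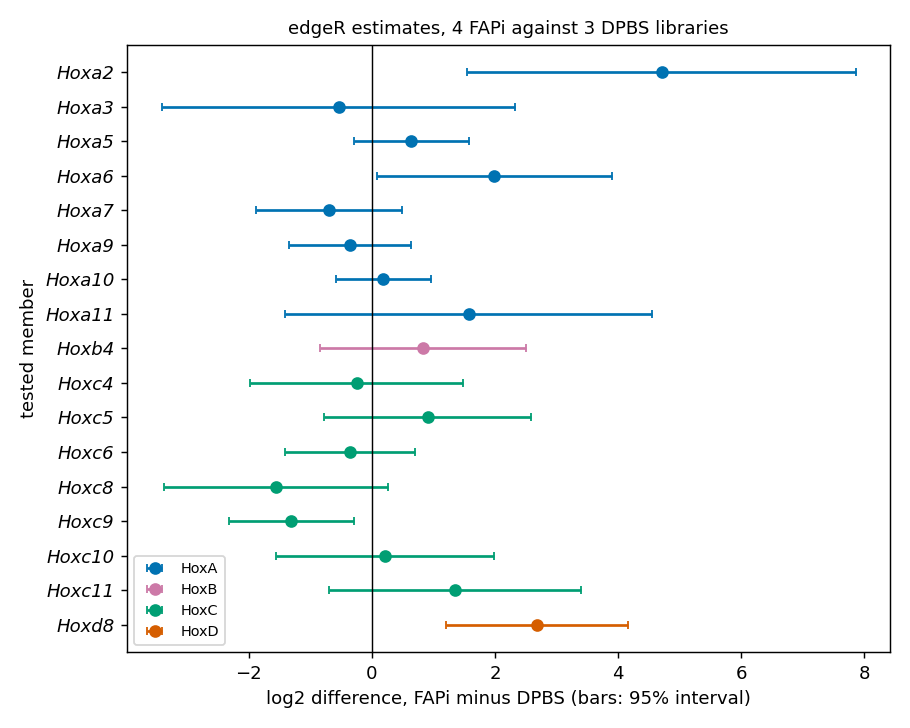
log2 difference (FAPi minus DPBS) of 17 of the 18 tested Hox genes in cluster order, with 95% intervals from the edgeR fit of 4 FAPi and 3 DPBS libraries; colours mark clusters. The intervals of Hoxa2, Hoxa6, Hoxd8 (above 0) and Hoxc9 (below 0) exclude 0 and the others drawn include it, though no gene passes after adjustment.

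Libraries of one group differed more from each other at the typical Hox gene than at the typical tested gene. The pooled within-group SD on the log2 scale had a median of 1.10 over the 18 tested members, with 0.348 for Hoxa10 as the lowest, against a median of 0.759 over all tested genes. Their abundance was alike, with a median mean level of 18.0 CPM for the members and 18.4 CPM for all tested genes. The groups did not overlap for 3 members, Hoxa2 and Hoxa6 on the higher side and Hoxc9 on the lower, where 7.34% of all tested genes had groups that did not overlap (3.39% higher, 3.95% lower). For Hoxa2 that side was fixed by the filter, and FAPi replicate 1 held 1 read like each DPBS library, so it was separate only through scaling.

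**Figure D3:**
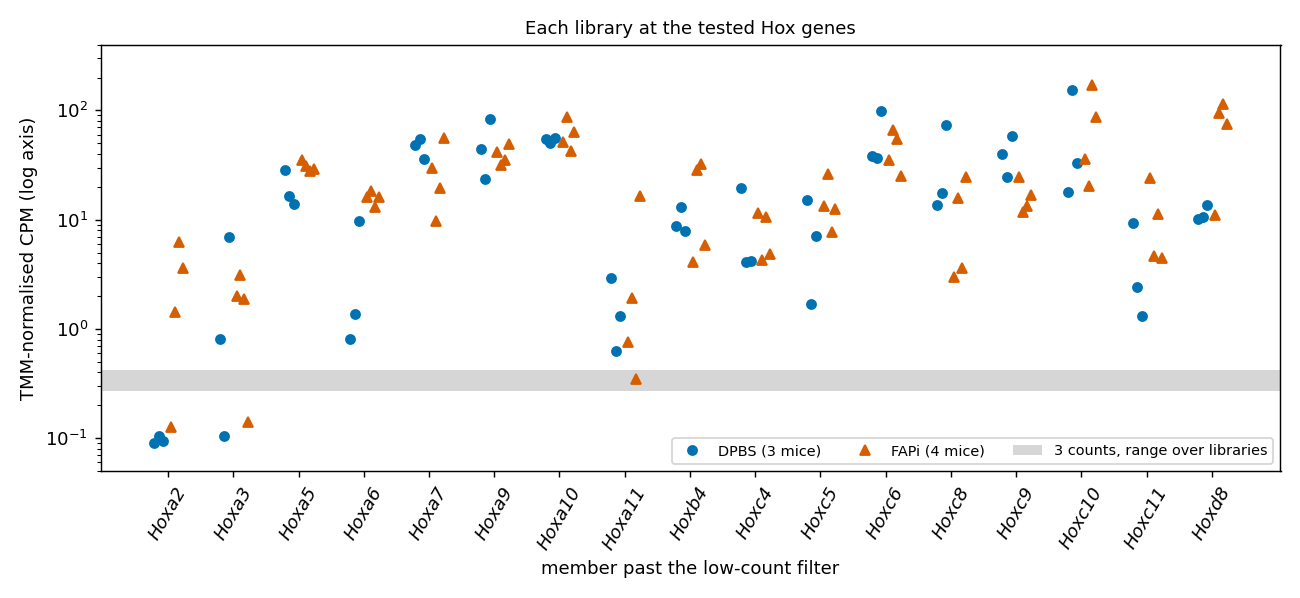
TMM-normalised CPM (log axis) of 17 of the 18 tested Hox genes, with 1 point per library: circles for the 3 DPBS mice and triangles for the 4 FAPi mice. The grey band is the level of 3 reads; Hoxa10 and Hoxa5 points lie close together, while Hoxd8 shows 3 FAPi libraries between 75.2 and 114 CPM and the fourth among the DPBS libraries.

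The single HoxD gene past the filter, Hoxd8 (chr2:74704615-74707933, plus strand), had the smallest p of the family. Hoxd8 lies in the middle of its cluster and is used in the trunk and early limb bud. It was measured at 10.2, 10.6 and 13.8 CPM in DPBS replicates 1 to 3, and 11.05, 95.6, 114 and 75.2 CPM in FAPi replicates 1 to 4. FAPi replicates 2, 3 and 4 were above all DPBS libraries, and FAPi replicate 1 lay within the DPBS range. Group means were 11.5 ± 1.95 CPM (SD) over the 3 DPBS mice and 73.99 ± 44.9 CPM (SD) over the 4 FAPi mice, and the edgeR log2 difference was 2.68 ± 0.67 (SE), with a 95% interval of 1.20 to 4.17, an unadjusted p of 0.00222 and an adjusted p of 0.462. DESeq2 gave 2.72 with an adjusted p of 0.00400, and over all alternatives the estimate stayed between 2.02 and 3.04 with adjusted p from 0.00400 to 0.800. No exon of another annotated gene overlaps Hoxd8. The HoxD sum followed it, at 3.83, 3.90 and 5.24 CPM per kb in DPBS replicates 1 to 3 and 4.06, 37.2, 41.6 and 27.5 CPM per kb in FAPi replicates 1 to 4.

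The neighbours of Hoxd8 had few or no reads counted in the same libraries. Hoxd9, a gene of the upper limb segment, had 39 reads in FAPi replicate 2, 2 reads in DPBS replicate 1, 1 read in FAPi replicate 4 and none elsewhere. Hoxd11, which acts in the forearm and lower leg, had 1, 2 and 10 reads in DPBS replicates 1 to 3, and 1, 0, 2 and 0 reads in FAPi replicates 1 to 4. Hoxd1, Hoxd3, Hoxd4, Hoxd10, Hoxd12 and Hoxd13 had no read in any library. Hoxd13, the principal digit gene of the cluster, is in that group. Where exons are not shared, a count of 0 allows up to 0.269 to 0.419 CPM, depending on the library. Exons of other annotated genes overlap 62.8% of Hoxd3 and 52.3% of Hoxd4. Reads there could count for another gene or for none, so the 0 says less for these genes.

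**Figure D4:**
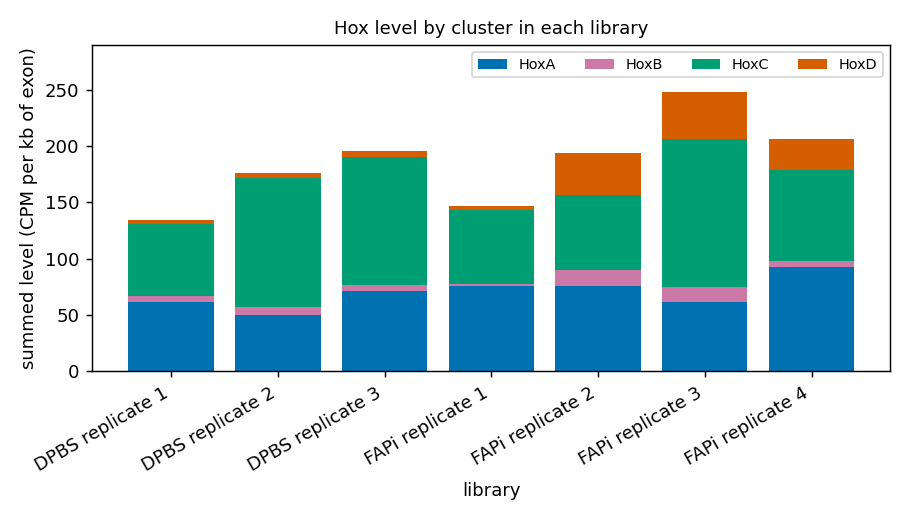
Summed level of the genes of each Hox cluster in each library, in TMM-normalised CPM per kb of exon, stacked by cluster. HoxA and HoxC make up most of each bar, and the HoxD segment is 27.5 to 41.6 CPM per kb in FAPi replicates 2 to 4 and 3.83 to 5.24 in the other 4 libraries.

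The anterior HoxA genes were low, and among them Hoxa2 had the largest estimate. Hoxa2 (chr6:52162417-52164831, minus strand) specifies the second pharyngeal arch and the hindbrain. It was covered by 1, 1 and 1 reads in DPBS replicates 1 to 3, and 1, 11, 54 and 26 reads in FAPi replicates 1 to 4. On the CPM scale this was 0.0896, 0.106 and 0.0942 CPM in DPBS replicates 1 to 3, and 0.126, 1.42, 6.29 and 3.63 CPM in FAPi replicates 1 to 4. FAPi replicates 2 to 4 were above the 3-read floor, and the other 4 libraries held 1 read each. Hoxd8 was high in the same 3 FAPi libraries, but Hoxa2 was tested only because these 3 passed the cutoff. Pooled over libraries there were 3 reads in DPBS and 92 in FAPi, a ratio of 30.5 after scaling, with a 95% counting interval of 10.1 to 150 that leaves out the spread between mice. The fitted log2 difference was 4.71 ± 1.43 (SE), 95% interval 1.55 to 7.86, adjusted p 0.488 by edgeR. Hoxa2 passed the filter through FAPi libraries alone, so it could only have a higher estimate, and its fitted fold depends on the prior count: limma on CPM with a pseudocount of 1 gave 1.43. Without any one of FAPi replicates 2, 3 or 4 it no longer passed the filter.

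Hoxa3, needed for thymus and parathyroid, lay at 0.106 to 6.88 CPM in DPBS and 0.140 to 3.10 CPM in FAPi, with a log2 difference of -0.54 ± 1.30 (SE) and an adjusted p of 0.958 by edgeR. The estimate turned to 1.92 without DPBS replicate 3, the library with the highest value. Hoxa4 was not tested; it had 11 reads in DPBS replicate 1, 16 in FAPi replicate 3, and at most 1 elsewhere.

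Promoters of Hoxd8 and Hoxa2, the tested genes whose 3 highest values were in FAPi replicates 2 to 4, are printed for comparison. They were picked after the values were seen. Hoxa2 was tested only because these 3 libraries passed the cutoff, so the shared libraries are not a result. They run from 250 bases before to 50 bases after the annotated start and were taken from RefSeq on GRCm38.p6, 5′ to 3′ on the gene's strand. Capitals mark matches, searched on both strands, to 3 sets of letters. TGATNNAT is a joint site of Pbx with Hox proteins. The Meis site was searched as TGACAG. The motif of the TATA box was searched as TATAAA. Hoxb6, which did not pass the filter, also had its 3 highest values in FAPi replicates 2 to 4, at 34, 8 and 6 reads, with 5 reads in DPBS replicate 1.
Hoxd8 promoter, chr2:74704365-74704664, plus strand: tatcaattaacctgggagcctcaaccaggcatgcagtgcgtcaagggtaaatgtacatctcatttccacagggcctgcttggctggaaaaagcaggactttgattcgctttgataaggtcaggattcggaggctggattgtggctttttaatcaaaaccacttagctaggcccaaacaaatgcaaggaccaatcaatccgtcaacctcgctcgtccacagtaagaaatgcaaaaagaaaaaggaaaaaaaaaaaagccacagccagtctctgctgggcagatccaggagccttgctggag
Hoxa2 promoter, chr6:52164782-52165081, minus strand: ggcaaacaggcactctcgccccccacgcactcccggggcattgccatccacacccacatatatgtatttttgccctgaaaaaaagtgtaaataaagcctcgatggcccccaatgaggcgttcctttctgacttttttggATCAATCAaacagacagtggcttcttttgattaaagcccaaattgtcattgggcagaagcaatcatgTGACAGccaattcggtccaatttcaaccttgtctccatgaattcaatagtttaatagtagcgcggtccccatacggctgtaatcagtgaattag
The Hoxa2 window held 1 match to TGATNNAT and 1 to TGACAG, and the Hoxd8 window held no match to any of the 3. Among 24 promoter entries, which covered 22 of the 39 members, TGATNNAT was found in 4, TGACAG in 2 and TATAAA in 4. Over all 32851 promoters of that length the shares were 8.85%, 19.2% and 13.6%. A match describes letters only and shows no binding. The ratio of observed to chance-expected CpG dinucleotides had a median of 0.594 over 12 promoter entries of tested members, 0.779 over 12 entries of members not tested, and 0.384 over all promoters.

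Of the central HoxA genes, Hoxa5 varied least within groups, with a pooled SD of 0.355 on the log2 scale. Hoxa5, which is needed for lung and for the shoulder girdle, was measured at 28.8, 16.5 and 14.04 CPM in DPBS replicates 1 to 3, and 35.4, 31.3, 27.7 and 29.03 CPM in FAPi replicates 1 to 4. The FAPi libraries lay within 27.7 to 35.4 CPM, and DPBS replicate 1 reached into that range. Its log2 difference was 0.64 ± 0.42 (SE), with an adjusted p of 0.736 by edgeR, and 1.01 without DPBS replicate 1. Hoxa6, its neighbour (chr6:52206288-52208722), was measured at 0.806, 1.37 and 9.80 CPM in DPBS replicates 1 to 3, and 16.1, 18.4, 13.2 and 16.1 CPM in FAPi replicates 1 to 4. All FAPi libraries were above all DPBS libraries, among which replicate 3 was highest. The log2 difference of Hoxa6 was 1.99 ± 0.87 (SE), 95% interval 0.08 to 3.90, unadjusted p 0.0427 and adjusted p 0.585 by edgeR. It became 3.85 without DPBS replicate 3 and 1.496 without DPBS replicate 1. Hoxa7, a thoracic gene, was measured at 48.6, 54.7 and 36.3 CPM in DPBS replicates 1 to 3, and 29.6, 9.69, 19.6 and 55.6 CPM in FAPi replicates 1 to 4. Its FAPi libraries ran from the lowest to the highest value of the 7, and the log2 difference was -0.70 ± 0.54 (SE), adjusted p 0.777, with -0.42 without FAPi replicate 2 and -1.24 without FAPi replicate 4.

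Of the posterior HoxA genes, Hoxa10 and Hoxa9 had the higher levels and Hoxa11 a low one, at 1.53 CPM per kb. Hoxa10 (chr6:52231197-52240854), used in the femur region, the lumbar spine and the uterus, was measured at 55.3, 50.3 and 55.8 CPM in DPBS replicates 1 to 3, and 50.97, 87.4, 42.5 and 64.1 CPM in FAPi replicates 1 to 4. The FAPi libraries enclosed the DPBS libraries. Its log2 difference was 0.19 ± 0.35 (SE), with a 95% interval of -0.58 to 0.96 and an adjusted p of 0.936 by edgeR. Hoxa9, which also acts in blood progenitors, was measured at 44.1, 23.3 and 83.6 CPM in DPBS replicates 1 to 3, and 41.8, 31.5, 35.4 and 49.1 CPM in FAPi replicates 1 to 4. DPBS replicates 2 and 3 were the lowest and highest of the 7, and the log2 difference was -0.35 ± 0.45 (SE). Hoxa11, which patterns the forearm and lower leg, was measured at 2.96, 0.634 and 1.32 CPM in DPBS replicates 1 to 3, and 0.753, 1.94, 0.349 and 16.6 CPM in FAPi replicates 1 to 4. FAPi replicate 4 alone was above 3 CPM. The log2 difference of 1.57 ± 1.35 (SE) had an adjusted p of 0.811 and became -0.68 without that library. The antisense gene Hoxa11os shares exon sequence over 35.0% of Hoxa11, and without a stated strand setting reads in that shared part cannot be told apart. The remaining exon sequence is Hoxa11's own. Hoxa13, a digit gene, had 27 reads in DPBS replicate 3 and at most 2 in any other library.

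Within HoxC, the genes of groups 6 to 10 had the highest levels per kb, and Hoxc10 and Hoxc8 varied widely between mice of a group, with pooled SDs of 1.45 and 1.37 on the log2 scale. Hoxc10 (chr15:102966796-102971893) was measured at 18.1, 153 and 32.99 CPM in DPBS replicates 1 to 3, and 35.7, 20.2, 172 and 87.8 CPM in FAPi replicates 1 to 4. DPBS replicate 2 and FAPi replicate 3 were the 2 highest libraries, and DPBS replicate 1 and FAPi replicate 2 the 2 lowest. The log2 difference was 0.22 ± 0.80 (SE), with an interval of -1.56 to 1.99 and an adjusted p of 0.978 by edgeR. It rose to 1.62 without DPBS replicate 2, and was negative without DPBS replicate 1 (-0.24), without DPBS replicate 3 (-0.12) and without FAPi replicate 3 (-0.50). Hoxc11, another hindlimb gene, was measured at 9.32, 2.43 and 1.32 CPM in DPBS replicates 1 to 3, and 24.2, 4.65, 11.2 and 4.47 CPM in FAPi replicates 1 to 4. FAPi replicates 1 and 3 were above all DPBS libraries, and the log2 difference was 1.35 ± 0.93 (SE), adjusted p 0.745, with 0.63 without FAPi replicate 1 and 2.56 without DPBS replicate 1.

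Hoxc9 (chr15:102976439-102985099), which sets thoracic identity in the spinal cord, was the tested member whose FAPi libraries all lay below the DPBS libraries. It was measured at 39.95, 24.8 and 58.9 CPM in DPBS replicates 1 to 3, and 24.7, 11.8, 13.3 and 16.9 CPM in FAPi replicates 1 to 4. The lowest DPBS value and the highest FAPi value were close. DPBS replicate 3, the highest library at Hoxc9, had the lowest erythroid and neutrophil marker sums of its group (1886 and 675 CPM). In FAPi these sums were 1637 to 3328 and 198 to 624 CPM. Whether other cells bear on the Hoxc9 values was not tested. Group means were 41.2 ± 17.1 CPM (SD) over the 3 DPBS mice and 16.7 ± 5.79 CPM (SD) over the 4 FAPi mice. The log2 difference was -1.31 ± 0.46 (SE), 95% interval -2.32 to -0.29, unadjusted p 0.0161 and adjusted p 0.511 by edgeR, and the estimate ran from -1.57 to -0.96 over the alternatives. Its neighbour Hoxc8, a gene of the brachial and thoracic cord, was measured at 13.7, 17.4 and 73.04 CPM in DPBS replicates 1 to 3, and 3.01, 15.6, 3.61 and 24.7 CPM in FAPi replicates 1 to 4. DPBS replicate 3 was far above the other 6 libraries. The Hoxc8 log2 difference of -1.57 ± 0.83 (SE) had an adjusted p of 0.668 and shrank to -0.41 without that library.

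Hoxc6, a thoracic gene also used in the mammary gland, was measured at 38.4, 36.97 and 99.8 CPM in DPBS replicates 1 to 3, and 35.5, 66.7, 54.5 and 25.1 CPM in FAPi replicates 1 to 4. DPBS replicate 3 was again the highest, as for Hoxc8, Hoxc9 and Hoxa9. The log2 difference was -0.36 ± 0.48 (SE), adjusted p 0.902 by edgeR, and turned to 0.27 without that library. The more anterior HoxC genes, of the neck and forelimb level, were lower per kb of exon, at 3.87 CPM per kb for Hoxc5 and 3.29 for Hoxc4. Hoxc5 lay at 1.69 to 15.1 CPM in DPBS and 7.69 to 26.2 CPM in FAPi (log2 difference 0.90 ± 0.76 (SE)), and Hoxc4 at 4.12 to 19.5 CPM in DPBS and 4.26 to 11.5 CPM in FAPi (log2 difference -0.24 ± 0.78 (SE)). The Hoxc5 estimate was 0.43 without DPBS replicate 2, 0.47 without FAPi replicate 2 and 1.76 without DPBS replicate 1, and that of Hoxc4 turned to 0.91 without DPBS replicate 1. Hoxc5 and Hoxc10 share exon sequence in the annotation, over 8.70% of Hoxc10 and 5.37% of Hoxc5, so reads there could count for either or for neither. At the 5′ end, Hoxc12 had 33 reads in FAPi replicate 2 and none elsewhere, and Hoxc13, known for hair and nail, had 21 reads in the same library and at most 1 in any other.

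HoxB was represented mainly by Hoxb4, a gene best known for expanding blood stem cells. Hoxb4 (chr11:96318267-96321638) was measured at 8.78, 12.99 and 7.92 CPM in DPBS replicates 1 to 3, and 4.14, 28.4, 32.1 and 5.86 CPM in FAPi replicates 1 to 4. FAPi replicates 2 and 3 were above all DPBS libraries and FAPi replicates 1 and 4 below all of them. Its log2 difference was 0.83 ± 0.76 (SE), adjusted p 0.827 by edgeR, with 0.50 without FAPi replicate 2 and 0.39 without FAPi replicate 3. The progenitor marker sum, which includes the TALE gene Meis1, was highest in DPBS replicate 2, at 291 CPM, and reached 182 CPM in FAPi. Its bearing on Hoxb4 was not tested. Hoxb2 had 35, 0 and 1 reads in DPBS replicates 1 to 3, and 2, 8, 4 and 69 reads in FAPi replicates 1 to 4. Hoxb3 had 66 reads in DPBS replicate 2, 5 in DPBS replicate 1, 2 in each of DPBS replicate 3 and FAPi replicate 1, and none elsewhere. Hoxb6 had 5, 2 and 1 reads in DPBS replicates 1 to 3, and 3, 34, 8 and 6 reads in FAPi replicates 1 to 4. Hoxb7 had 34 reads in DPBS replicate 3 and at most 4 in any other library, and Hoxb1 had 1 read in FAPi replicate 2. Hoxb5, Hoxb8, Hoxb9 and Hoxb13 had no read in any library.

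Among the 21 untested members, signal was in some cases tied to single libraries, and mouse and library cannot be told apart with 1 library per mouse. Of these genes 10 had no reads, 1 (Hoxb1) never exceeded 3 reads, and 10 exceeded 3 reads in at least 1 library. In 5 of those 10 it was a single library: Hoxa13, Hoxc12, Hoxc13, Hoxd9 and Hoxd11. FAPi replicate 2 was that library for Hoxc12, Hoxc13 and Hoxd9, and DPBS replicate 3 for Hoxa13 and Hoxd11.

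Noncoding and other genes lie between the Hox genes, and some act as long noncoding RNAs on the cluster. Of 46 such genes inside the 4 spans, 31 had no reads and 8 passed the filter, 6 of them in HoxA and 2 in HoxB, with none called by edgeR and 1 at an unadjusted p under 0.05. That gene, Hoxaas2, is antisense to the Hoxa3 region and was measured at 4.84, 3.80 and 8.95 CPM in DPBS replicates 1 to 3, and 104, 116, 4.08 and 3.77 CPM in FAPi replicates 1 to 4. FAPi replicates 1 and 2 were high and FAPi replicates 3 and 4 lay near the lowest DPBS library. Its log2 difference was 3.28 ± 1.19 (SE), adjusted p 0.519 by edgeR, 0.0299 by DESeq2, and up to 0.913 over the alternatives. Of its high libraries, FAPi replicate 2 was also high for Hoxa2 and Hoxd8, and FAPi replicate 1 was not. Hotairm1, antisense in the anterior part of HoxA, lay at 6.69 to 34.04 CPM in DPBS and 1.51 to 9.95 CPM in FAPi (log2 difference -1.16 ± 0.80 (SE)). Hoxaas3 lay at 1.32 to 8.51 CPM in DPBS and 1.63 to 29.00 CPM in FAPi, and Hoxa11os at 0.317 to 4.21 CPM in DPBS and 0.699 to 28.8 CPM in FAPi. Gm15050 (4.03 to 10.03 CPM in DPBS and 0.838 to 7.22 CPM in FAPi) and Gm27477 (1.70 to 6.54 CPM in DPBS and 2.51 to 5.13 CPM in FAPi) were the other 2 in HoxA. In HoxB, Hoxb3os lay at 0.317 to 3.85 CPM in DPBS and 0.558 to 2.33 CPM in FAPi and the pseudogene Gm11539 at 2.45 to 6.90 CPM in DPBS and 2.68 to 4.77 CPM in FAPi. Hotair, the HoxC noncoding RNA, did not pass the filter and reached 5.16 CPM in FAPi replicate 4. Of the Hox genes themselves, 16 share exon sequence with another annotated gene, 8 of them tested. The shared part was 62.8% of Hoxd3, 52.9% of Hoxb3, 52.3% of Hoxd4, 27.1% of Hoxa3 and 20.4% of Hoxa7. Reads in a shared part could count for another gene or for none.

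The limb identity factors were read beside the Hox code. Pitx1, the hindlimb selector, was measured at 49.00, 42.9 and 44.95 CPM in DPBS replicates 1 to 3, and 55.7, 113, 47.3 and 60.2 CPM in FAPi replicates 1 to 4. FAPi replicate 2 was highest, the other 6 libraries lay between 42.9 and 60.2 CPM, and the log2 difference was 0.60 ± 0.38 (SE), adjusted p 0.723 by edgeR. Tbx5, the forelimb factor, was measured at 3.67, 0.422 and 0.377 CPM in DPBS replicates 1 to 3, and 0, 4.52, 4.08 and 0.279 CPM in FAPi replicates 1 to 4. Tbx4, its hindlimb counterpart, did not pass the filter and reached 2.33 CPM in DPBS replicate 1 and 1.86 CPM in FAPi replicate 3. Isl1, an early hindlimb gene, lay at 3.27 to 4.52 CPM in DPBS and 2.51 to 32.6 CPM in FAPi, with FAPi replicate 1 alone above 5 CPM, and Sall4 had no reads. Hindlimb-associated Pitx1, Hoxc10 and Hoxc11 were present in all 7 libraries. So were Hoxc4 and Hoxc5, of the neck and forelimb level, at 3.29 and 3.87 CPM per kb against 4.07 for Hoxc11. The limb of origin was not tested. None of these factors passed the edgeR threshold.

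**Figure D5:**
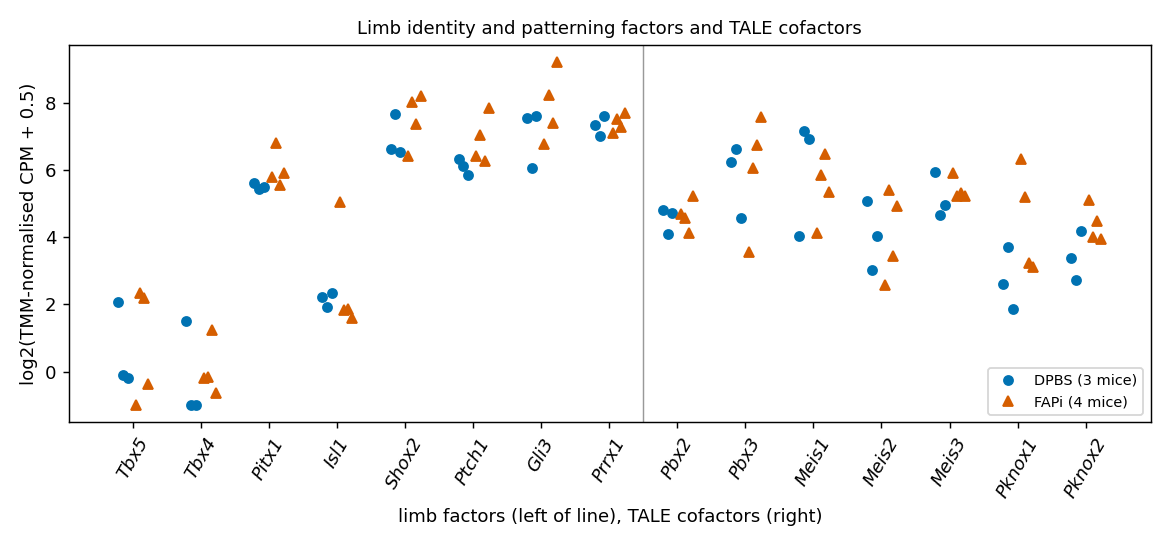
log2(TMM-normalised CPM + 0.5) of limb identity and patterning factors (left of the line) and TALE cofactors (right), 1 point per library: circles for 3 DPBS and triangles for 4 FAPi mice. Tbx5 stays at or below 4.52 CPM and Tbx4 at or below 2.33 CPM, Pitx1 lies between 42.9 and 113 CPM, and the circles and triangles overlap for every gene drawn.

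No member of any of the 5 context lists was called by edgeR. At an unadjusted p under 0.05 there was 1 of 8 tested TALE genes (Pknox1), 1 of 18 limb patterning factors (Ptch1), 1 of 23 chromatin genes (Men1) and 3 of 12 genes of the retinoid list. Over all tested genes 8.14% met this, and 50.6% had higher estimates. TALE cofactors (8 of 9 tested, 6 with higher and 2 with lower estimates, median log2 difference 0.18) included Meis1 at 15.9 to 145 CPM in DPBS and 17.1 to 89.1 CPM in FAPi, Pbx3 at 23.3 to 99.4 CPM in DPBS and 11.3 to 194 CPM in FAPi and Meis3 at 25.03 to 61.9 CPM in DPBS and 37.2 to 60.6 CPM in FAPi. Pknox1 was measured at 5.64, 12.7 and 3.11 CPM in DPBS replicates 1 to 3, and 81.1, 36.4, 8.97 and 8.24 CPM in FAPi replicates 1 to 4. It had an unadjusted p of 0.0272 and an adjusted p of 0.551, with FAPi replicates 1 and 2 above the rest, and Pknox2 lay at 6.13 to 17.9 CPM in DPBS and 15.1 to 34.1 CPM in FAPi. Limb patterning factors (18 of 27 tested, 15 with higher and 3 with lower estimates, median log2 difference 0.34, Sall1 and Sall3 at 0) were led by Gli3 at 66.5 to 195 CPM in DPBS and 110.1 to 604 CPM in FAPi, Shox2 at 92.5 to 206 CPM in DPBS and 85.99 to 296 CPM in FAPi, Prrx1 at 131 to 197 CPM in DPBS and 137 to 209.9 CPM in FAPi and Ptch1 at 58.1 to 80.9 CPM in DPBS and 76.8 to 232 CPM in FAPi. Gli3 and Ptch1 belong to the hedgehog pathway, Shox2 shapes the upper limb bones and Prrx1 marks limb mesenchyme. Ptch1 had a log2 difference of 0.91 ± 0.41 (SE) and an adjusted p of 0.602, and Tbx18 one of -1.52 ± 0.81 (SE) and 0.674.

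Polycomb and trithorax proteins keep Hox genes silent or active through cell division. Their list (23 of 25 tested, 12 with higher and 11 with lower estimates, median log2 difference 0.14, with Phf19 and Cbx2 at 0) was led by Kdm6b, a histone demethylase, at 266 to 490.3 CPM in DPBS and 412 to 851 CPM in FAPi, and Ezh2, the Polycomb methyltransferase, at 135 to 297 CPM in DPBS and 149 to 459 CPM in FAPi. Men1, a partner of the trithorax enzyme Kmt2a, was measured at 58.4, 67.5 and 72.9 CPM in DPBS replicates 1 to 3, and 168, 176, 93.2 and 87.4 CPM in FAPi replicates 1 to 4. All FAPi libraries were above all DPBS libraries, and the log2 difference was 0.99 ± 0.34 (SE), unadjusted p 0.0155 and adjusted p 0.509 by edgeR. Kmt2a itself lay at 53.5 to 89.4 CPM in DPBS and 67.3 to 133 CPM in FAPi. Retinoic acid and Gdf11 act on Hox transcription in the embryo. That list (12 of 21 tested, 6 with higher and 6 with lower estimates, median log2 difference 0.08, with Cdx1, Cdx2, Cyp26a1, Cyp26c1 and Crabp1 at 0) was led by Dhrs3, a retinaldehyde reductase, at 1022, 2327 and 1654 CPM in DPBS replicates 1 to 3, and 1694, 5496, 4560.3 and 3468 CPM in FAPi replicates 1 to 4. FAPi replicates 2 to 4 were above all DPBS libraries, and FAPi replicate 1 was not. Whether Dhrs3 or the other genes of this list bear on the Hox values was not tested. The Dhrs3 log2 difference was 1.19 ± 0.40 (SE), adjusted p 0.490. Gdf11, a trunk-to-tail signal, was measured at 37.8, 70.6 and 62.8 CPM in DPBS replicates 1 to 3, and 70.7, 190.0, 138 and 113 CPM in FAPi replicates 1 to 4. Its FAPi libraries were all higher, with FAPi replicate 1 nearly at the top DPBS value, a log2 difference of 1.16 ± 0.39 (SE) and an adjusted p of 0.490. Aldh1a2 lay at 20.8 to 58.9 CPM in DPBS and 36.2 to 74.1 CPM in FAPi and Rxra at 15.1 to 45.9 CPM in DPBS and 24.9 to 68.96 CPM in FAPi. Gmnn, named after its values were seen as the third gene of that list at an unadjusted p under 0.05, had a log2 difference of -1.27 ± 0.48 (SE), adjusted p 0.534.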

How the data were processed

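The data were RNA-seq counts from 7 libraries, 3 DPBS and 4 FAPi, 1 per mouse as the series design gives the numbers. The authors deposited a table of read counts and a table of CPM per library. Per the submitters' processing notes the authors used STAR, HTSeq and the mm10 build, with no version named. Neither the annotation nor the strand setting is stated in those sources. The deposited CPM are the counts scaled to the library total, which the counts reproduce to within 4.55e-05 CPM. Of 53801 gene identifiers, 53620 matched GENCODE M21, which supplied symbols, coordinates and exon lengths.

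The test across genes was edgeR 4.0.16 under R 4.3.3 on the deposited counts (TMM, filterByExpr by group with a minimum count of 10, glmQLFit and glmQLFTest with robust settings). Adjusted p-values are edgeR's, by Benjamini-Hochberg over all 12930 genes, unless another tool is named. A log2 difference is FAPi minus DPBS, and its SE is its size over the square root of F. The test was also tried on simulated counts, with means and dispersions taken from the fit to these data. The outcome is not given here. Alternatives used RLE and upper-quartile factors, DESeq2 1.42.0, limma 3.58.1 (voom with sample weights, and log2 of deposited CPM plus 1 or 0.1), no filter, each library left out, and the replicate number as a block. Scripts ran in Python 3.11.15.

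Members, lists, tests and alternatives were chosen with earlier results of these data known. The naming rule took every tested member, the 4 most abundant and the 2 smallest-p genes of each context list, Tbx5, Tbx4, Pitx1, the 3 most abundant genes of each marker list with Pdgfra, Ptprc and Tek, tested genes between the Hox genes, and Fap. Of the genes so named, 3 are not reported here. Replicates with the same number did not deviate together (correlations -0.01, -0.02 and -0.05 for numbers 1 to 3), so the numbers were not taken as pairs.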

Additional observations from a re-analysis of the deposited data

Results flagged for a closer look

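One FAPi library stood apart from the other 3 in 13 of 55 gene values checked and in none of 5 summed levels built from them, by Dixon's ratio of gap to range at its 95% critical value for 4 libraries. That value marks about 1 in 20 where values are normally spread, which genes near 0 reads are not, and the values are not independent of each other. The untested Hox members checked were those with a FAPi library above 3 reads. A high distant library was thus favoured by how they entered, and the number marked is not read against chance. In 12 cases the distant library was high and in 1 it was low. DPBS, with 3 libraries, was not checked. FAPi replicate 2 was the distant library for 6 of them: Hoxa11os at 28.8 CPM (others 0.699 to 4.47), Hoxb6 at 4.39 CPM (others 0.377 to 0.932), Hoxc12 at 4.26 CPM (others 0), Hoxc13 at 2.71 CPM (others 0 to 0.140), Hoxd9 at 5.04 CPM (others 0 to 0.140) and Kdm6b at 851 CPM (others 412 to 451). FAPi replicate 4 was high for Hoxa11 at 16.6 CPM (others 0.349 to 1.94) and Hoxb2 at 9.63 CPM (others 0.251 to 1.03), and low for Hoxb3os at 0.558 CPM (others 2.07 to 2.33). FAPi replicate 3 was high for Hoxa4 at 1.86 CPM (others 0 to 0.129) and Kmt2a at 133 CPM (others 67.3 to 75.9), and FAPi replicate 1 for Isl1 at 32.6 CPM (others 2.51 to 3.14) and Meis3 at 60.6 CPM (others 37.2 to 39.4). Of the 13 genes, 7 are Hox members, and 6 of those 7 are members that did not pass the low-count filter. At Hoxd8 the distant library was FAPi replicate 1 on the low side, with a ratio of 0.623 that stays under the critical value.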

How the results depend on the processing

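Over 15 settings the 17 tested Hox genes with values given here had 251 log2 differences, of which 233 kept direction and side of the threshold, 17 changed sign, in 7 members, and 1 gained a call (Hoxd8 in DESeq2, 2.72). Hoxa2 gave no estimate where the filter removed it. The number of genes called was 84 higher and 51 lower with DESeq2, 5 and 1 without the low-count filter, 4 and 2 with limma on CPM at either pseudocount, 1 and 0 with voom, and 0 to 2 higher and 0 to 1 lower with 1 library left out, the only calls there coming without DPBS replicate 3. Hox members called were 1 with DESeq2 and 0 elsewhere, and members at an unadjusted p under 0.05 fell from 4 to 2 without FAPi replicate 2 or 3. Changed signs were, with voom, Hoxa3 0.39, Hoxa11 -0.0084 and Tbx5 -0.23; with limma at pseudocount 1, Hoxa10 -0.0378, Prrx1 -0.0981 and Ezh2 -0.11; and at pseudocount 0.1, Hoxa3 0.14, Hoxa10 -0.0388, Tbx5 -0.26, Prrx1 -0.0985 and Ezh2 -0.11. The replicate number as a block, which drops FAPi replicate 4, called 0 genes, left 704 genes and 5 Hox members at an unadjusted p under 0.05, and turned Hoxa3 1.15, Hoxa11 -0.81, Hoxc4 0.21, Pbx3 -0.39, Prrx1 -0.0200, Gm27477 0.17 and Hoxb3os 0.27. Leaving out 1 library in turn gave ranges across 0 for Ezh2 -0.34 to 0.36, Gm27477 -0.48 to 0.39, Hotairm1 -1.53 to 0.0025, Hoxa10 -0.0460 to 0.34, Hoxa11 -0.68 to 2.30, Hoxa3 -1.11 to 1.92, Hoxa9 -0.70 to 0.23, Hoxc10 -0.50 to 1.62, Hoxc4 -0.59 to 0.91, Hoxc6 -0.62 to 0.27, Isl1 -0.45 to 1.68, Meis3 -0.0833 to 0.64, Pbx3 -0.0751 to 0.95, Prrx1 -0.0648 to 0.23 and Rxra -0.0048 to 0.70. The cause of these changes was not tested. None of the shares of clusters or paralogue groups moved by more than 1 SD under 10 alternatives. For HoxD that is a loose limit, since its SD of 7.59 is nearly as large as its share of 8.55%. With a median SD of 1.10 on the log2 scale and 3 against 4 mice, differences of the size seen at most Hox genes could not be separated from the spread between mice.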
